A study of Mus musculus with 12 samples.

Results

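Embryoid bodies that had lost Trim33 were compared with control embryoid bodies on day 2.5 of differentiation. Embryoid bodies are the aggregates that embryonic stem cells form in suspension once they are allowed to differentiate. The comparison rests on 6 of the 12 RNA libraries of the series, 3 control and 3 Trim33-deficient, picked by the day and genotype in their titles; the other 6 libraries are the same groups on day 2. Both genotypes come from mouse stem cell lines of an outbred background at passages 8 to 10, kept in LIF and 2i with no feeder layer. Per the labels' protocols, the embryos behind the lines carried Trim33-flox on both chromosomes and UbcCreERT2, a Cre recombinase that tamoxifen switches on and that a broadly active promoter drives. In the group labelled Trim33-deficient, 4OH-Tamoxifen was given on day 1, so that the bodies were collected 36 h later. The control libraries are labelled wildtype, and whether these cultures also received tamoxifen is not given in the sources used here. The labels mention 3 independent pairs of samples without saying which libraries form a pair, so the p-values reflect only how far these libraries vary.

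Trim33, also called TIF1-gamma, is a chromatin-bound RING-type ubiquitin ligase. It binds receptor-activated Smad2 and Smad3, the transcription factors through which Nodal and Activin act, it can ubiquitinate Smad4, and it reads modified histone H3 through a plant homeodomain finger and bromodomain. During these days of culture, stem cells leave the naive state, which LIF, Stat3 and factors such as Esrrb and Klf4 sustain, and pass through a primed, epiblast-like state marked by Fgf5, Otx2 and Dnmt3b. Nodal signalling then helps to start the primitive streak genes, among them T, Eomes and Gsc.

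Trim33 was low in each of the 3 libraries labelled deficient. Its level in CPM, the usual unit of counts scaled to library size (here with TMM factors), was 264, 247 and 239 for control replicates 1 to 3 and 54.4, 57.6 and 62.8 for deficient replicates 1 to 3, the order used throughout. The labels do not say which part of the gene is deleted, and the remaining reads were not placed within it. The 6 libraries held 12510528 to 16529627 counts assigned to genes. Control replicate 2 stood apart in 2 respects: the ribosomal RNA precursor Rn45s took 11.9% of its counts, against 0.609 to 1.67% in the other 5 libraries. Genes of the glycolysis and hypoxia list also lay on average 0.47 above the mean of the 6 libraries on the log2 scale, against -0.18 to 0.00 in the others. Rn45s was also higher in the deficient libraries, at 1.08 to 1.67%, than in control replicates 1 and 3, at 0.609 and 0.727%. With Rn45s left out before scaling, 3242 genes rose and 2870 fell, against 3165 and 2978 with it. The first principal component held 72.3% of the variance and separated the genotypes.

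Of 14356 genes tested, 3165 rose and 2978 fell in Trim33-deficient bodies (edgeR quasi-likelihood test, adjusted p under 0.05), so 22.0% of all genes rose, 20.7% fell and 42.8% passed in either direction. The 3 control and 3 deficient values did not overlap for 53.0% of the genes. Most changes were small. The median size among genes that passed was 0.45 on the log2 scale, 837 genes rose and 216 fell by more than 2-fold, and 101 rose and 8 fell by more than 4-fold. With the genes split into 4 groups of 3589 from weakly to strongly expressed, 337, 655, 815 and 1171 fell, more in each stronger group, while 743, 888, 809 and 725 rose. Every list below is to be read against these shares, and against a median log2 fold change of -0.010 over all genes. Since the data are from bulk RNA, a change in the number of cells of a type and a change in the RNA of each cell cannot be told apart.

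**Figure D1:**
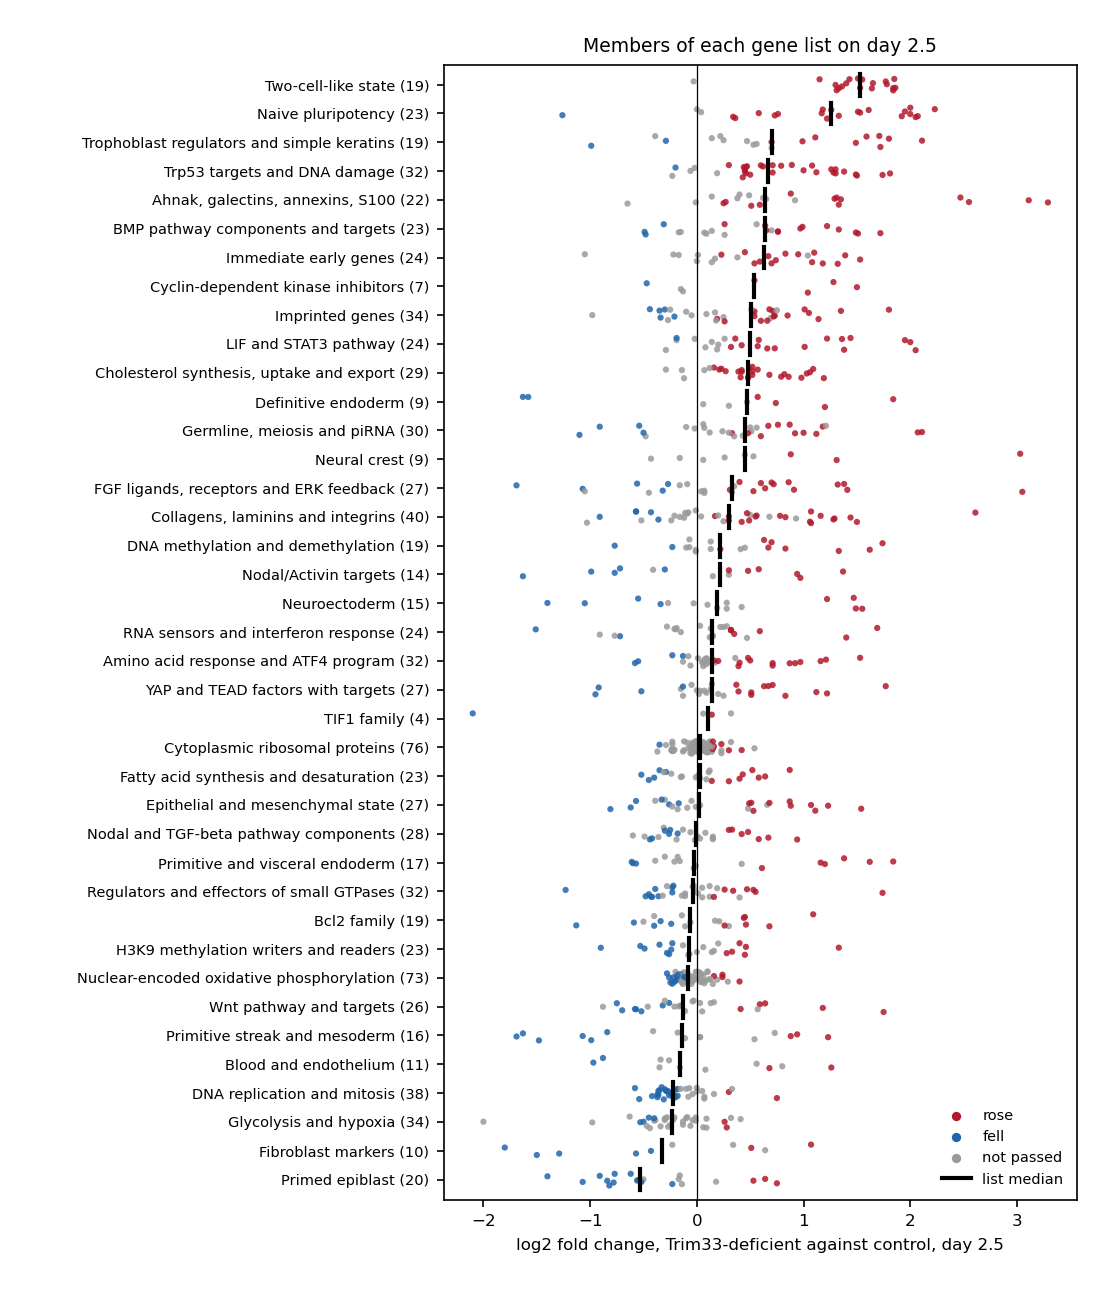
Log2 fold change of each tested member (points) of each gene list on day 2.5, Trim33-deficient against control; lists are ordered by their median (black bar), and the number of tested members stands in brackets. The two-cell-like list, with a median of 1.53, and the naive pluripotency list, with 1.26, lie farthest to the right, and the primed epiblast list, with -0.53, farthest to the left.

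Most of the 15 genes with the largest rises came from low levels. Cacna1e, a subunit of a voltage-gated calcium channel, stood at 0.525, 0.444 and 0.252 CPM in the control libraries and at 7.71, 5.12 and 3.15 CPM in the deficient ones (log2 fold change 3.68 ± 0.40 SE, adjusted p = 4.41e-06). The control values of such genes lie near the floor of 3 counts, which equals 0.179 to 0.267 CPM, so their fold changes are imprecise. Ahnak, a very large scaffold protein beneath the plasma membrane, rose from 12.4, 9.95 and 8.25 CPM to 107, 69.3 and 88.1 CPM (log2 fold change 3.11 ± 0.32 SE, adjusted p = 6.94e-05). Sstr5, a somatostatin receptor, stood at 2.43, 2.13 and 2.46 CPM against 16.9, 15.7 and 15.6 CPM (2.77 ± 0.16 SE, adjusted p = 9.24e-09). Itga8, an integrin alpha chain, rose by 2.61 ± 0.25 on the log2 scale, from 1.31, 0.711 and 1.57 CPM to 9.02, 8.05 and 5.89 CPM. Sh3rf2, a ring-finger adaptor protein, and Smok4a, a kinase gene, rose by 3.38 ± 0.44 and 3.66 ± 0.44, from 0.197, 0.0888 and 0.378 and 0.131, 0.0888 and 0.252 CPM in the control libraries.

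Falls of this size were rarer. Car14, a membrane-bound carbonic anhydrase, fell from 27, 30.7 and 27.5 CPM to 5.46, 5.85 and 11.2 CPM (log2 fold change -1.89 ± 0.27 SE, adjusted p = 0.000208). Its deficient replicate 3 was the highest of the 3. Mogat2, an acyltransferase of triglyceride synthesis, fell from 15.9, 18.3 and 16.4 to 3.20, 5.19 and 5.18 CPM (log2 fold change -1.89 ± 0.23 SE, adjusted p = 2.09e-05). Ldb2, a LIM-domain-binding cofactor, fell from 4.46, 4.89 and 5.41 to 0.655, 1.17 and 1.67 CPM (-2.04 ± 0.30 SE). Also among the 15 largest falls were 3 muscle-type actins. Acta1 changed by -2.10 ± 0.50, Actc1 by -1.83 ± 0.49 and Acta2 by -1.80 ± 0.38 on the log2 scale, and the LIM protein Fhl2 by -2.04 ± 0.50. Each of the 4 was highest in control replicate 2, with 6.04, 4.89, 2.93 and 6.22 CPM there. Stc1, the hormone stanniocalcin, and Tbc1d30 had their peak in the same library. Their calls ended without it (adjusted p = 0.0858 and 0.155), and also without any one deficient library or with no filter.

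Naive pluripotency genes were higher almost throughout the list. In the list, 20 of 23 members rose, 1 fell and 2 missed the threshold, with a median of 1.26. Among the Krüppel-like factors, Klf4 stood at 2.30, 1.60 and 2.39 CPM in control and 10.4, 7.90 and 7.50 CPM in deficient bodies (log2 fold change 2.00 ± 0.25 SE, adjusted p = 1.53e-05). Klf5 stood at 15.8, 13.2 and 12.5 CPM against 59.4, 52.5 and 48.5 CPM (log2 fold change 1.95 ± 0.21 SE, adjusted p = 3.15e-05). For Klf2 the values were 32, 22.9 and 22.9 and 115, 93.3 and 86.8 CPM. In all 3 genes the lowest deficient library exceeded the highest control library by more than 2-fold. Zfp42, the classical stem cell marker Rex1, rose from 31.2, 20.2 and 27.1 to 72.4, 63.7 and 62.9 CPM. Dppa3, a maternal factor that protects DNA methylation, rose from 7.74, 7.11 and 6.99 to 15.2, 17.6 and 16.7 CPM. Prdm14, a repressor of the primed and germ layer genes, was near the floor in control bodies and reached 2.91, 2.49 and 1.67 CPM. The core factors moved little or not at all: Pou5f1 stood at 856, 766 and 872 against 809, 857 and 822 CPM (-0.00 ± 0.06, adjusted p = 0.966), and Sox2 rose by 0.34 ± 0.06. Nanog was the member that fell (-1.26 ± 0.15), with 163, 209 and 175 CPM in control and 68.7, 77.1 and 81.5 CPM in deficient bodies.

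The LIF and STAT3 pathway list rose with it, and the lists share Tfcp2l1, Klf4, Klf5 and Gbx2. Of 24 tested members, 15 rose, 1 fell and 8 did not pass (median 0.50). Among the ligand and receptor genes, Lif rose modestly from 6.69, 6.75 and 7.81 to 9.46, 9.51 and 9.52 CPM (log2 fold change 0.42 ± 0.12 SE, adjusted p = 0.00917). Il6st, the shared signalling chain gp130, rose from 36.9, 42.4 and 35.4 to 56.8, 54.7 and 59.1 CPM (log2 fold change 0.58 ± 0.07 SE, adjusted p = 2.01e-05). Lifr, the ligand-specific chain, did not pass (0.20 ± 0.12, adjusted p = 0.178). Feedback inhibitors rose too. Socs3, which shuts off signalling at gp130, stood at 6.50, 8.00 and 6.49 CPM in control and 22.5, 15.1 and 18.6 CPM in deficient bodies (log2 fold change 1.44 ± 0.22 SE, adjusted p = 0.000174). Its relative Socs2 stood at 72.4, 66.7 and 69.8 and 114, 113 and 103 CPM. Ptpn11, the phosphatase Shp2 that carries the signal to ERK, was the member that fell, by 0.19 ± 0.05 on the log2 scale. Stat3 itself rose from 28.5, 29.3 and 24.7 to 80.2, 67.7 and 64.1 CPM (log2 fold change 1.36 ± 0.10 SE, adjusted p = 1.76e-07). The target kinase Pim1 did not pass (0.19 ± 0.19, adjusted p = 0.468).

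The Socs3 promoter holds a match to the palindromic Stat site TTCNNNGAA, which is why it is shown. It was the single match among the 23 promoters found for the 26 list members counted in the files (4.35%), against 8.13% of 27025 genes in the RefSeq table, over the 250 bases before the start and on both strands. The sequence is from GRCm38.p6, chr11:117969367-117969616 on the minus strand, 5′ to 3′ along the gene, with the match in capitals:
Socs3: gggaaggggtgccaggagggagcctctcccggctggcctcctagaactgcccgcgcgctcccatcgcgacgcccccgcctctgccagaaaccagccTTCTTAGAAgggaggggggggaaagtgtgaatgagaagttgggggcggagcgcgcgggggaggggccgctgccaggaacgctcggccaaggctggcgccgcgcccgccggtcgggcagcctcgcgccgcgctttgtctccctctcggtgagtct

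Primed epiblast genes moved the other way. Of 20 tested members 12 fell, 3 rose and 5 did not pass (median -0.53). Lin28b, an RNA-binding protein that blocks let-7 maturation, fell from 142, 138 and 137 to 74.7, 81.6 and 80.5 CPM (log2 fold change -0.82 ± 0.06 SE, adjusted p = 2.12e-07), with little spread inside either group. Otx2, a homeodomain factor that drives the exit to the epiblast, fell from 156, 227 and 175 to 51.4, 57.3 and 101 CPM (log2 fold change -1.40 ± 0.30 SE, adjusted p = 0.00599), and its deficient replicate 3 lay well above the other two. Zic5 fell by 0.78 ± 0.11 and Fgf5 by 0.56 ± 0.09 on the log2 scale, the latter from 135, 135 and 149 to 85.6, 98.8 and 101 CPM. Pou3f1, the epiblast factor Oct6, did not pass (0.18 ± 0.10, adjusted p = 0.185), and Lef1 rose by 0.64 ± 0.13.

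**Figure D2:**
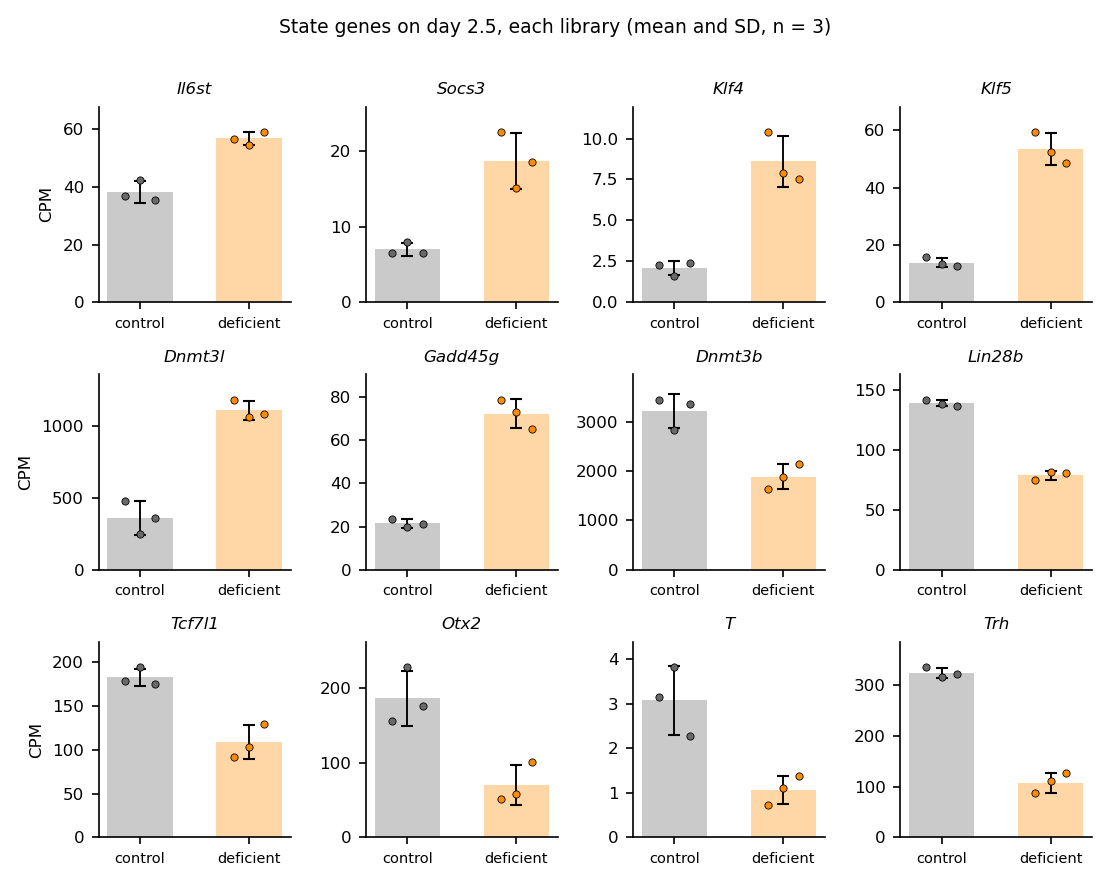
CPM of 12 genes in each control (grey) and Trim33-deficient (orange) library on day 2.5; points are libraries, bars means and whiskers SD (n = 3 each), with a linear axis from 0 for each gene. The first 6 genes are higher in every deficient library and the last 6 are lower; Otx2 reaches 101 CPM in deficient replicate 3.

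Primitive streak genes, most of them low in both groups, did not move in one direction. Of 16 tested members 6 fell, 3 rose and 7 did not pass. T, the Brachyury factor of early mesoderm, stood at 3.15, 3.82 and 2.27 CPM in control and 0.727, 1.10 and 1.37 CPM in deficient bodies (log2 fold change -1.48 ± 0.28 SE, adjusted p = 0.000565). Gsc, the organizer homeobox gene, was low in control and close to the floor in deficient bodies, with 1.51, 1.33 and 0.819 against 0.436, 0.146 and 0.536 CPM (log2 fold change -1.63 ± 0.45 SE, adjusted p = 0.00870). Apln, a peptide ligand, fell from 9.91, 7.64 and 7.18 to 5.02, 5.34 and 3.57 CPM. Mixl1, another early streak gene, did not pass (-0.41 ± 0.28, adjusted p = 0.253), nor did Wnt3 (-0.11 ± 0.23, adjusted p = 0.732). Snai1, Snai2 and Mesp2 rose, and without control replicate 3 or deficient replicate 2 the count of risers was 1.

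Marker lists of endoderm and neuroectoderm were mixed, while trophoblast genes rose more often than they fell. In the definitive endoderm list 4 of 9 rose, among them Hhex (0.57 ± 0.15), while Trh, the thyrotropin-releasing hormone gene, fell from 335, 316 and 321 to 86.9, 111 and 126 CPM (log2 fold change -1.58 ± 0.16 SE, adjusted p = 4.10e-05). In all 2 members of the definitive endoderm list fell. With only genes averaging at least 1 CPM tested, 2 of its members rose and 1 fell. In the primitive and visceral endoderm list 6 of 17 rose and 3 fell, and 3 rose with that filter. Apoe, the lipid carrier, rose from 381, 514 and 418 to 1084, 959 and 881 CPM. The endoderm factor Gata4 did not pass (-0.03 ± 0.14), and Afp had no more than 0.178 CPM in any library. Among 15 neuroectoderm genes 4 rose and 4 fell, and 2 rose without control replicate 3 or with that filter. Sox11 stood at -0.34 ± 0.07 and Zfp521 at -1.05 ± 0.21, and Pax6 and Sox1 did not pass. Of the 19 trophoblast genes tested 9 rose and 2 fell (median 0.70). Gata3 rose from 0.984, 1.33 and 0.944 to 2.84, 3.44 and 4.29 CPM. Plet1, a surface protein of the trophoblast, rose from 2.76, 3.29 and 2.77 to 11.3, 8.56 and 8.75 CPM. Cdx2 did not pass (0.70 ± 0.38) and Elf5, which defines trophoblast stem cells, had no count in any of the 6 libraries.

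Fibroblast markers fell more often than they rose, with 5 of 10 lower and 2 higher; without control replicate 3 or any one deficient library 1 was higher. Thy1, a surface glycoprotein, stood at 18.9, 25.7 and 19.2 CPM in control and 6.11, 7.10 and 9.05 CPM in deficient bodies (log2 fold change -1.5 ± 0.21 SE, adjusted p = 9.51e-05). Tagln, an actin-binding protein of smooth muscle, stood at 24.2, 40.2 and 23.9 against 10.4, 11.1 and 14 CPM (log2 fold change -1.29 ± 0.19 SE, adjusted p = 0.000161). Both were highest in control replicate 2. The summed level of the whole list was 84 to 109.5 CPM in control and 57.2 to 64.5 CPM in deficient libraries, and Postn had no count in any of them. Blood and endothelial markers gave 2 rises and 2 falls among 11 tested: Pecam1, which naive stem cells also express, rose from 29.8, 36.5 and 35 to 94.3, 77.6 and 70 CPM, and the early blood and vessel factors Etv2 and Lmo2 fell by 0.97 ± 0.24 and 0.88 ± 0.19 on the log2 scale. Without deficient replicate 2, 1 of these markers rose. Kdr and Cdh5, which define endothelium, had at most 0.591 and 0.298 CPM in any library.

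Genes of the pathway in which Trim33 acts did not move in one direction. Among the Nodal and TGF-beta components 7 of 28 rose and 6 fell, with a median of -0.01; without control replicate 1, 10 fell. Ligands and their cofactor were higher: Nodal itself stood at 155, 115 and 127 CPM in control and 200.3, 196 and 198 CPM in deficient bodies. Gdf3, a co-ligand, stood at 76.6, 58.5 and 75.8 and 105, 98.2 and 93.3 CPM (log2 fold change 0.48 ± 0.10 SE, adjusted p = 0.00213). Tdgf1, the co-receptor Cripto, had 654, 635 and 636 and 855, 850.2 and 706 CPM (log2 fold change 0.33 ± 0.08 SE, adjusted p = 0.00393). Of the receptors, Acvr2b fell from 37.7, 40.9 and 36 to 28.4, 25.5 and 31 CPM (-0.42 ± 0.09). None of the signal transducers Smad2, Smad3 and Smad4 passed, with Smad2 at 0.01 ± 0.06 (adjusted p = 0.921), Smad4 at -0.13 ± 0.06 (adjusted p = 0.0654) and the partner Foxh1 at -0.02 ± 0.06 (adjusted p = 0.789). Smad3 stood at 30.5, 48.7 and 35 CPM in control and 24.7, 25.9 and 30.2 CPM in deficient bodies, with no overlap (-0.49 ± 0.20, adjusted p = 0.0734). It passed as lower without control replicate 1 (adjusted p = 0.0345), in the fit to the day 2.5 libraries alone (adjusted p = 0.0439), with the replicate block (adjusted p = 0.0130) and by DESeq2 (adjusted p = 0.0191). Smad4 also passed without control replicate 1, and with upper-quartile factors. Smad7, the inhibitory Smad, fell by 0.30 ± 0.06 and the corepressor Tgif1 by 0.26 ± 0.06 on the log2 scale. Usp9x, a deubiquitinase that acts on Smad4, rose by 0.42 ± 0.06.

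Targets of Nodal and Activin split. Of 14 tested 6 rose and 5 fell. Lefty2, the feedback antagonist beside Lefty1, stayed level (0.15 ± 0.10, adjusted p = 0.250). On the BMP side 12 of 23 members rose and 3 fell (median 0.64). Msx2, a homeobox target, rose from 1.18, 0.977 and 0.756 to 2.55, 2.56 and 2.26 CPM, and the pseudoreceptor Bambi from 13, 15.2 and 13.5 to 24.6, 26.6 and 30 CPM. Chrd, the secreted BMP antagonist chordin, rose from 8.27, 5.95 and 6.42 to 16.6, 17.7 and 14.2 CPM (log2 fold change 1.22 ± 0.15 SE, adjusted p = 1.62e-05). The transducer Smad1 and the receptor Bmpr1a were 2 of the members that fell, by 0.48 ± 0.07 and 0.31 ± 0.05 on the log2 scale. Id1 and Id2 rose by 0.99 ± 0.13 and 0.76 ± 0.10 on the log2 scale, with no overlap between the groups. Id3 and Smad6, both direct BMP targets, did not pass (0.07 ± 0.13 and -0.17 ± 0.17).

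Feedback genes of the FGF and ERK pathway were among the risers of their list, in which 13 of 27 rose and 5 fell. Spry4, an inhibitor of receptor tyrosine kinase signalling, rose from 44.8, 23.3 and 34.1 to 93.7, 93 and 87.4 CPM (log2 fold change 1.41 ± 0.33 SE, adjusted p = 0.00871), with control replicate 2 the lowest library. Its relative Spry2 rose from 99.9, 79.3 and 92.9 to 147, 142 and 136 CPM (log2 fold change 0.64 ± 0.11 SE, adjusted p = 0.000818). The ETS factor Etv1 rose by 0.91 ± 0.13, the ERK phosphatase Dusp6 by 0.40 ± 0.11, and Etv5 did not pass (0.07 ± 0.04). Fgf4, the autocrine ligand of stem cells, stood level at 198, 199 and 209 against 192, 204 and 226 CPM (0.04 ± 0.06, adjusted p = 0.632), while Fgfr1 fell and Fgfr2 rose (-0.27 ± 0.04 and 0.70 ± 0.12). In the Wnt list 5 of 26 rose and 8 fell. Tcf7l1, the repressor that limits naive genes in the absence of Wnt, fell from 179, 194 and 175 to 92.2, 103 and 129.8 CPM (log2 fold change -0.75 ± 0.10 SE, adjusted p = 9.15e-05). The secreted modulator Sfrp1 fell from 95, 106 and 98.8 to 58.6, 60.1 and 65.9 CPM (log2 fold change -0.70 ± 0.07 SE, adjusted p = 1.74e-06). Axin2 and Notum, both feedback inhibitors induced by Wnt, rose by 0.41 ± 0.10 and 1.75 ± 0.31.

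Enzymes and cofactors of DNA methylation changed in both directions. 8 of 19 tested members rose and 2 fell; without control replicate 1 or 3 or deficient replicate 1 or 2, 1 fell. Dnmt3b, the de novo methyltransferase that rises in the epiblast, stood at 3445, 2822 and 3367 CPM in control and 1635, 1884 and 2133 CPM in deficient bodies (log2 fold change -0.77 ± 0.10 SE, adjusted p = 6.81e-05). Dnmt3l, its catalytically inactive partner, moved oppositely, from 475, 246 and 356 to 1179, 1058 and 1081 CPM (log2 fold change 1.62 ± 0.29 SE, adjusted p = 0.00206). Tet1, which oxidizes methylcytosine, rose from 362, 320.4 and 296 to 548, 501 and 543 CPM (log2 fold change 0.70 ± 0.10 SE, adjusted p = 0.000183). Gadd45g, a DNA repair adaptor linked to demethylation, rose from 23.6, 19.7 and 21.3 to 78.8, 72.9 and 65.2 CPM (log2 fold change 1.74 ± 0.16 SE, adjusted p = 7.16e-06). The maintenance enzyme Dnmt1 did not pass (-0.07 ± 0.06, adjusted p = 0.351). Zfp57, the zinc finger protein that holds methylation at imprinted regions, rose from 48.4, 38.5 and 39.2 to 110.4, 100.1 and 107 CPM (log2 fold change 1.33 ± 0.18 SE, adjusted p = 0.000213). Of 34 imprinted genes 17 rose and 5 fell, and the 5 falls became 0 without deficient replicate 1, 1 without control replicate 3 and 3 without control replicate 1. Impact rose from 347, 349 and 336 to 630.2, 581 and 508 CPM (log2 fold change 0.73 ± 0.06 SE, adjusted p = 3.84e-07). Plagl1, a zinc finger factor of the imprinted network, rose from 15.1, 13.1 and 11.9 to 39.6, 37.6 and 25.2 CPM, and Peg3 by 0.71 ± 0.16. The counts do not separate the parental alleles.

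Writers and readers of histone H3K9 methylation, a lysine mark linked to Trim28, a relative of Trim33, showed small shifts, with 6 of 23 higher and 8 lower. Suv39h2, a methyltransferase, fell from 86.4, 91.3 and 89.9 to 58.3, 65 and 62.1 CPM (-0.53 ± 0.06) and the demethylase Kdm1a by 0.35 ± 0.04, while Fam208a, a subunit of the HUSH silencing complex, rose by 0.46 ± 0.05. Setdb1 stood level (-0.00 ± 0.05, adjusted p = 0.987), as did Trim28 (0.06 ± 0.08, adjusted p = 0.588). Markers of the two-cell-like condition, in which scattered stem cells resemble the early cleavage embryo, rose in 18 of 19 cases and fell in 0 (median 1.53). Zfp352 stood at 12.4, 5.95 and 6.17 CPM in control and 29, 28.4 and 28 CPM in deficient bodies (log2 fold change 1.78 ± 0.30 SE, adjusted p = 0.000731). Usp17lc stood at 11.3, 7.02 and 8.56 against 25.2, 27.1 and 24.8 CPM. The values of Sp110 were 1.71, 1.51 and 1.07 and 4.36, 5.85 and 5.18 CPM. Many members, such as the Zscan4, Usp17l and Tdpoz genes, are near-identical copies, so the assignment of reads to single copies is uncertain. Among germline genes 12 of 30 rose and 4 fell. Dmrt1, a germ cell transcription factor, rose from 39.1, 46.6 and 44.6 to 82, 74.5 and 64.5 CPM. Prdm1, the germ cell determinant Blimp1, rose from 11.4, 15.5 and 11.3 to 26.2, 24.7 and 21.1 CPM. Tdrd7, a piRNA granule protein, fell by 0.91 ± 0.24, and Ddx4 did not pass (-0.02 ± 0.09).

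Most sterol genes rose. Of 29 tested members of the cholesterol list 24 rose, 0 fell and 5 did not pass (median 0.48). Cyp51, which demethylates lanosterol, stood at 149.6, 143 and 149.7 CPM in control and 359, 338 and 315 CPM in deficient bodies (log2 fold change 1.19 ± 0.05 SE, adjusted p = 4.44e-10). Sqle, the squalene epoxidase, had 162, 148 and 158 and 259.6, 266 and 286 CPM (log2 fold change 0.79 ± 0.05 SE, adjusted p = 3.11e-08). In both genes the spread inside each group was small beside the difference between the groups. The exporter Abca1, which cells induce when sterols are in excess, rose as well, from 3.74, 4.97 and 3.90 to 7.35, 6.44 and 8.27 CPM (log2 fold change 0.82 ± 0.18 SE, adjusted p = 0.00180). Hmgcs1 has 0 counts in all 6 libraries and was not tested. Gapdh, a glycolytic enzyme that cells usually express strongly, had no more than 5.45 CPM in any of them. The part that the assignment of reads to genes has in these low values was not tested. The fatty acid list was mixed, with 8 of 23 higher and 5 lower; without control replicate 1 or deficient replicate 3, 5 rose. Elovl6, an elongase, rose by 0.58 ± 0.06 and the phosphatidate phosphatase Lpin1 by 0.87 ± 0.17, Acaca, the committing enzyme of fatty acid synthesis, did not pass (0.01 ± 0.08), and Gpam, an acyltransferase, fell by 0.40 ± 0.07 on the log2 scale.

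**Figure D3:**
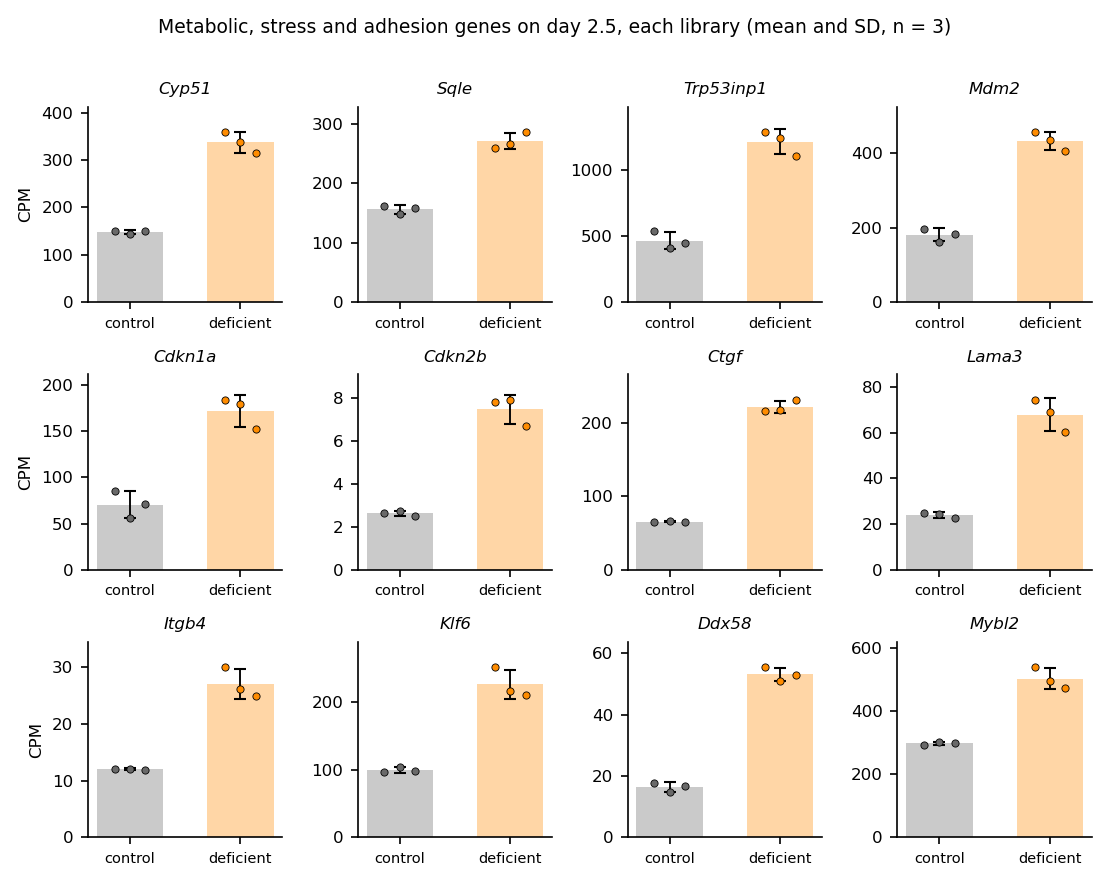
CPM of 12 genes of sterol, p53, YAP, adhesion, early response, RNA sensing and cell cycle lists in each control (grey) and Trim33-deficient (orange) library on day 2.5; points are libraries, bars means and whiskers SD (n = 3 each), on a linear axis from 0. In all 12 genes every deficient library lies above every control library. Groups did not overlap, in either direction, for 53.0% of all genes tested. All 12 are risers and do not stand for their lists. Mybl2 is 1 of 2 risers in the replication and mitosis list, where 24 of 38 fell.

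Targets of p53 were higher in 27 of 32 cases, 1 fell and 4 did not pass (median 0.67). Mdm2, the ubiquitin ligase that limits p53, stood at 197, 162 and 182 CPM in control and 456, 435 and 406 CPM in deficient bodies (log2 fold change 1.26 ± 0.10 SE, adjusted p = 1.56e-06). Trp53inp1 rose from 538, 410.3 and 446 to 1283, 1241 and 1102 CPM (log2 fold change 1.38 ± 0.11 SE, adjusted p = 1.74e-06). Perp, a membrane protein of desmosomes and apoptosis, rose from 29.2, 24 and 28 to 87.2, 78.5 and 63.9 CPM (log2 fold change 1.49 ± 0.13 SE, adjusted p = 2.16e-06). Eda2r, a death receptor of the TNF family, went from 68.5, 61.9 and 63.7 to 138, 130.1 and 121 CPM (log2 fold change 1.00 ± 0.07 SE, adjusted p = 8.97e-08). The transcript of p53 itself, Trp53, did not pass (300.2, 220.1 and 264 against 297, 293 and 308 CPM, adjusted p = 0.147). Rps27l was the member that fell (-0.20 ± 0.05); without control replicate 1, 2 fell. In Mdm2, Trp53inp1, Perp and Eda2r control replicate 2 was the lowest library; without it the list gave 27 rises.

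Of 7 inhibitors of cyclin-dependent kinases 4 rose, 1 fell, and Cdkn2c and Cdkn3 did not pass (-0.15 ± 0.46 and -0.13 ± 0.11). Cdkn1a is also in the p53 list. Cdkn1a, the p21 inhibitor, rose from 84.9, 55.7 and 70.8 to 184, 179 and 152 CPM (log2 fold change 1.28 ± 0.15 SE, adjusted p = 8.33e-05). Cdkn2b, the p15 inhibitor classically induced by TGF-beta, rose from 2.63, 2.75 and 2.52 to 7.78, 7.90 and 6.67 CPM (log2 fold change 1.5 ± 0.17 SE, adjusted p = 5.67e-06). Cdkn2a, which encodes p16 and Arf, rose from 5.71, 5.24 and 6.86 to 13.6, 12.9 and 10.7 CPM (log2 fold change 1.04 ± 0.15 SE, adjusted p = 6.86e-05). Cdkn1b, the p27 inhibitor, fell (log2 fold change -0.47 ± 0.17 SE, adjusted p = 0.0444), a call that was lost without any single library other than control replicate 1 (adjusted p = 0.0738 to 0.161) and with no filter (adjusted p = 0.0876). Replication and mitosis genes were lower by small amounts: 24 of 38 fell, 2 rose and 12 did not pass (median -0.22). Mcm7, a subunit of the replicative helicase, went from 385, 423 and 432 to 302, 304 and 317 CPM (log2 fold change -0.42 ± 0.05 SE, adjusted p = 1.44e-05). Ccne1, the S-phase cyclin, went from 264, 216 and 249 to 162, 159 and 180.0 CPM (log2 fold change -0.54 ± 0.08 SE, adjusted p = 0.000191). The G1 cyclin Ccnd1 fell from 148, 125 and 138 to 91.7, 94.8 and 88.1 CPM. Mybl2, a cell cycle transcription factor, went against the list, from 293, 304 and 299 to 539.8, 498 and 474 CPM (log2 fold change 0.75 ± 0.07 SE, adjusted p = 1.94e-06), and Mki67, the proliferation marker, did not pass (-0.04 ± 0.09, adjusted p = 0.748).

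Members of the Bcl2 family rose and fell in near-equal number (6 and 5 of 19). Both survival genes Bcl2l1 and Mcl1 rose, the former from 57, 48.8 and 56.9 to 88.8, 85.7 and 87.3 CPM (log2 fold change 0.68 ± 0.07 SE, adjusted p = 1.67e-06) and the latter by 0.45 ± 0.06. Among the death-promoting genes, Bax rose from 233, 201 and 243 to 308, 312 and 298 CPM and Bbc3, the p53 target Puma, by 0.46 ± 0.07. Hrk rose from 7.74, 8.88 and 6.74 to 21.5, 15.6 and 12.4 CPM. Bak1 fell by 0.34 ± 0.06. Bok, a relative of Bax, fell from 27.6, 27.3 and 33.8 to 13.6, 11.9 and 14.9 CPM (log2 fold change -1.13 ± 0.11 SE, adjusted p = 2.30e-06).

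Targets of YAP and TEAD included large rises, but most members of the list did not rise. Of 27 tested members 11 rose, 4 fell and 12 did not pass (median 0.14). Ctgf, a secreted matricellular protein, stood at 64.3, 65.7 and 65 CPM in control and 216, 217 and 231 CPM in deficient bodies (log2 fold change 1.77 ± 0.10 SE, adjusted p = 3.74e-08), and each group spanned a narrow range. Its relative Cyr61 went from 20.2, 35.7 and 20.1 to 41.8, 39.1 and 51.9 CPM (log2 fold change 0.83 ± 0.19 SE, adjusted p = 0.00491), with control replicate 2 above the other controls. Lats2, the kinase that restrains YAP and is also its target, rose from 6.30, 7.46 and 5.67 to 13.7, 14.2 and 16.9 CPM (log2 fold change 1.22 ± 0.16 SE, adjusted p = 2.09e-05). F3, tissue factor, rose from 5.05, 5.69 and 5.54 to 12.8, 11.4 and 11.2 CPM, Ptpn14 by 0.71 ± 0.10 and Ajuba by 0.51 ± 0.07. Tead2, the TEAD factor of early embryos, fell from 279, 328 and 318 to 139, 158 and 189 CPM (log2 fold change -0.92 ± 0.15 SE, adjusted p = 0.000753), and Rassf2, a tumour suppressor scaffold, by 0.95 ± 0.11 on the log2 scale. Tead1, another factor of the family, named after its values were seen, rose from 145, 165 and 126 to 232, 220.4 and 242 CPM (log2 fold change 0.67 ± 0.10 SE, adjusted p = 0.000165). Without Trim33 the coactivator Yap1 changed by -0.13 ± 0.04, a small fall whose call ended without control replicate 2 or deficient replicate 1 (adjusted p = 0.0739 and 0.0683), and with the replicate number as a block (adjusted p = 0.109).

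The TEAD core GGAATG, or its reverse complement, lies in the 250 bases before the start of 11 of the 23 list members found in the RefSeq table (47.8%), against 14.4% of all its genes. Of these 5 rose, 2 fell and 3 did not pass, and the remaining one was not tested. The promoters of 3 risers are shown because their matches differ in number and distance from the start. They come from GRCm38.p6, Cyr61 at chr3:145649986-145650235 on the minus strand, Ajuba at chr14:54577662-54577911 on the minus strand and Amotl2 at chr9:102717554-102717803 on the plus strand, and read 5′ to 3′ along the gene with matches in capitals:
Cyr61: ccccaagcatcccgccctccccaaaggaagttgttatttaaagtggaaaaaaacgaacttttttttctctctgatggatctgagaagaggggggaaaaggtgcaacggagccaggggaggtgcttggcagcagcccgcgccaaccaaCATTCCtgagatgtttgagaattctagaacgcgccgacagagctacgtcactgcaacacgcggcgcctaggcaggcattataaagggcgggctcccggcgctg
Ajuba: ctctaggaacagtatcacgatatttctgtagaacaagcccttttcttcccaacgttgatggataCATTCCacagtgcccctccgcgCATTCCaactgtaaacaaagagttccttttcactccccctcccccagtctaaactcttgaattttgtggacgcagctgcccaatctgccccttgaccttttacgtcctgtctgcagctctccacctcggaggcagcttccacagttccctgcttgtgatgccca
Amotl2: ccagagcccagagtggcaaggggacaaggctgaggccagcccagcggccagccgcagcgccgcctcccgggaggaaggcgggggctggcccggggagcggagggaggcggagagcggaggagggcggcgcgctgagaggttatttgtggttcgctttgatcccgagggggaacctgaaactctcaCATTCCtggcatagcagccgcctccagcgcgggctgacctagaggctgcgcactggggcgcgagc
Ajuba holds 2 matches, starting 186 and 164 bases before the start, Cyr61 one at 103 and Amotl2 one at 65. Amotl2, which tethers YAP at junctions, rose from 162, 179 and 156 to 188, 207 and 244 CPM (0.37 ± 0.08).

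Matrix and adhesion genes rose more often than they fell, at 19 and 5 of 40 (median 0.30). Lama3, the alpha chain of the epithelial basement membrane protein laminin-332, stood at 24.9, 24.6 and 22.5 CPM in control and 74.4, 68.9 and 60.4 CPM in deficient bodies (log2 fold change 1.5 ± 0.10 SE, adjusted p = 3.11e-08). Its partner chain Lamb3, named here for its place in the same trimer after its values were seen, rose by 1.28 ± 0.18. Itgb4, the integrin chain that binds this laminin, rose from 12.1, 12.1 and 11.9 to 29.9, 26.1 and 24.9 CPM (log2 fold change 1.16 ± 0.10 SE, adjusted p = 9.54e-07). Its alpha partner Itga6 fell from 222, 235 and 246 to 170.1, 181 and 196 CPM (-0.36 ± 0.06). The early embryonic laminin chains Lama1 and Lamb1 did not pass (-0.16 ± 0.11 and -0.01 ± 0.06). Fibronectin, Fn1, rose from 309, 342 and 264 to 675, 634 and 616 CPM (log2 fold change 1.07 ± 0.12 SE, adjusted p = 2.88e-05). In the list of epithelial and mesenchymal genes 10 of 27 rose and 6 fell: Cdh1 fell by 0.26 ± 0.05, Cdh2 rose from 10.3, 7.37 and 8.19 to 19.1, 14.2 and 14.3 CPM (0.87 ± 0.15), Cldn6 fell by 0.62 ± 0.13, and Epcam stayed level (0.03 ± 0.04, adjusted p = 0.623).

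The list that holds Ahnak counted 13 rises and 0 falls among 22 tested genes; without control replicate 2 or deficient replicate 3, 1 fell. Anxa8, a calcium-dependent membrane-binding annexin, rose from 2.76, 1.69 and 2.20 to 14, 12.6 and 13 CPM (log2 fold change 2.55 ± 0.24 SE, adjusted p = 1.32e-06). S100a10, which forms a complex with annexin A2, rose from 19.2, 12.8 and 15.5 to 44.2, 36.9 and 36.4 CPM (log2 fold change 1.29 ± 0.12 SE, adjusted p = 1.45e-06). Its relative S100a11 rose from 4.07, 4.80 and 4.72 to 11.6, 10.7 and 12.3 CPM. Lgals9, a galectin, rose from 4.53, 3.73 and 4.09 to 10.2, 10.7 and 10 CPM. For Anxa2 itself control replicate 2 decided the result: it stood at 16.1, 64.1 and 19 CPM in control and 46.9, 39.6 and 40.7 CPM in deficient bodies. It did not pass over all libraries (adjusted p = 0.603) and showed a rise of 1.28 on the log2 scale without that library (adjusted p = 0.0493).

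Among regulators and effectors of small GTPases 7 of 32 rose and 10 fell. The GTPase Rac1 fell from 209, 203 and 209 to 86.3, 88.1 and 91.5 CPM (-1.23 ± 0.05). Its effector kinase Pak1 fell from 167, 158 and 169 to 122, 123 and 123 CPM (log2 fold change -0.43 ± 0.05 SE, adjusted p = 6.01e-06). Limk1, which Pak1 activates, fell from 55.6, 51.8 and 58.8 to 38.7, 38.1 and 42.1 CPM (log2 fold change -0.48 ± 0.07 SE, adjusted p = 4.76e-05). In the exchange factor Vav2 the change was from 62.2, 64.3 and 64.7 to 44.7, 45.9 and 52.4 CPM (-0.42 ± 0.06). Cdc42 did not pass (-0.11 ± 0.04, adjusted p = 0.0632) and Rhoa fell by 0.23 ± 0.05. Arhgdib, an inhibitor of GTPase cycling typical of blood cells, rose from 1.12, 1.24 and 1.13 to 4.15, 3.88 and 3.69 CPM (log2 fold change 1.74 ± 0.22 SE, adjusted p = 2.03e-05).

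Immediate early genes, which growth factor and stress signals switch on within minutes, rose in 15 of 24 cases and fell in 0 (median 0.63). Klf6 stood at 96.5, 105 and 98.7 CPM in control and 252, 217 and 211 CPM in deficient bodies (log2 fold change 1.18 ± 0.07 SE, adjusted p = 8.35e-09). Jun, a subunit of the AP-1 factor, stood at 23.7, 24.1 and 21.1 against 56.7, 48.7 and 42 CPM (log2 fold change 1.10 ± 0.12 SE, adjusted p = 3.78e-06). Its partner Fos stood at 2.43, 2.40 and 1.83 against 5.67, 7.31 and 4.52 CPM (log2 fold change 1.39 ± 0.24 SE, adjusted p = 0.000241). The nuclear receptor Nr4a1 had 20.9, 20.2 and 21.9 and 39.9, 31.5 and 34.1 CPM. Egr1, a standard readout of ERK activity, did not pass (-0.17 ± 0.18, adjusted p = 0.450).

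The amino acid response list, whose genes ATF4 drives when amino acids or protein folding fail, gave 14 rises and 4 falls among 32 tested. Slc38a2, an amino acid transporter, rose from 763, 579 and 644 to 1549, 1532 and 1521 CPM (log2 fold change 1.21 ± 0.12 SE, adjusted p = 2.14e-05), and Atf4 itself by 0.40 ± 0.06. Trib3, a pseudokinase target, rose from 17.6, 13.1 and 14.4 to 27.2, 24.7 and 22.1 CPM (log2 fold change 0.71 ± 0.12 SE, adjusted p = 0.000214). The related factor Atf3 rose from 2.63, 0.888 and 1.64 to 5.24, 5.34 and 4.88 CPM. The enzymes that make amino acids did not follow: Asns and Psat1 did not pass (0.09 ± 0.06 and -0.08 ± 0.12), and Phgdh, the first enzyme of serine synthesis, fell from 39.2, 39.6 and 45.2 to 27.3, 29.8 and 28 CPM (log2 fold change -0.55 ± 0.08 SE, adjusted p = 7.62e-05). A stretch with the ATF4 composite element TGATGNAA on either strand was found before 9 of 26 members (34.6%), against 3.91% of all genes in the table. Of these members 4 rose, 1 fell and 4 did not pass. The promoters of 3 that rose carry the same core letters, and Chac1 and Nupr1 were named for that match after their values had been seen. They are from GRCm38.p6, Atf3 at chr1:191183334-191183583 on the minus strand, Chac1 at chr2:119350992-119351241 on the plus strand and Nupr1 at chr7:126625471-126625720 on the minus strand:
Atf3: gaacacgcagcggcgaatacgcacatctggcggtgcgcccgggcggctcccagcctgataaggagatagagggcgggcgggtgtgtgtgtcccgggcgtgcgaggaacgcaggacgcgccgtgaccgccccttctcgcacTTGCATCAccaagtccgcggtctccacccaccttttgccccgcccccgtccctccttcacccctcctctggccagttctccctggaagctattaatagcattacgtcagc
Chac1: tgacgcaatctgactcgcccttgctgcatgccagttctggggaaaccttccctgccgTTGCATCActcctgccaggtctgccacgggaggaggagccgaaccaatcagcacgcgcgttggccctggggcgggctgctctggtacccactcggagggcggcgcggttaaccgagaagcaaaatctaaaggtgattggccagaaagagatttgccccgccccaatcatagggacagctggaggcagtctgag
Nupr1: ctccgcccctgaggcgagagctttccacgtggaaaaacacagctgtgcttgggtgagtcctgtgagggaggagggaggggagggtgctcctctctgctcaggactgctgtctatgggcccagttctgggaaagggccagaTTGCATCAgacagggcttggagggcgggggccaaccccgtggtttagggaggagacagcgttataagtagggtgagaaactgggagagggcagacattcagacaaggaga
Chac1, which degrades glutathione, rose by 0.71 ± 0.24 and Nupr1, a stress-induced chromatin protein, by 1.16 ± 0.20. For the other motifs searched, TCACNCCAC of sterol regulatory factors lay before 1 of 21 cholesterol genes (4.76%) and 1.22% of all genes. The match was before Hmgcs1, which was not tested, so no cholesterol gene that rose held it. GTCTAGAC and AATNCACA of Smad and Foxh1 lay before 0 and 0 of 6 Nodal targets and 0.2 and 3.73% of all genes.

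Of 24 RNA sensor and interferon response genes tested, 6 rose, 2 fell and 16 did not pass. Ddx58, the RNA sensor RIG-I, stood at 17.6, 14.7 and 16.9 CPM in control and 55.4, 51 and 52.9 CPM in deficient bodies (log2 fold change 1.69 ± 0.11 SE, adjusted p = 2.48e-08). Ifitm3, a membrane protein that blocks virus entry and marks early germ cells, rose by 0.59 ± 0.07, Irf1 did not pass (0.13 ± 0.12), and Isg15 and Irf7, which interferon strongly induces, had at most 0.444 and 0.366 CPM in any of the 6 libraries. Without control replicate 3 or deficient replicate 1, 3 members rose. The members that fell were Ifit2 (-1.51 ± 0.55) and Oasl2 (-0.72 ± 0.25), both highest in control replicate 2; without control replicate 2 or 3 or deficient replicate 1 or 2 the count of falls was 0, and without deficient replicate 3 it was 1.

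Genes of energy metabolism and translation gave few calls. In the glycolysis and hypoxia list 2 of 34 rose and 4 fell. Ldha, lactate dehydrogenase, fell from 1405, 1586 and 1466 to 1004, 1081 and 1067 CPM (log2 fold change -0.50 ± 0.09 SE, adjusted p = 0.000532). The lactate transporter Slc16a3 fell from 349, 414 and 376 to 224, 256 and 307 CPM (log2 fold change -0.53 ± 0.12 SE, adjusted p = 0.00537). Several hypoxia genes were high in control replicate 2 alone, as in Slc2a3 with 667, 1215 and 772 CPM and Bnip3 with 33.1, 70.9 and 44.1 CPM in the control libraries, and neither passed. The risers numbered 4 without that library and 0 without control replicate 1 or 3, and 1 without deficient replicate 1 or 2. Nuclear-encoded oxidative phosphorylation genes rose in 4 and fell in 16 of 73 cases, for example Sdha by -0.23 ± 0.04, and without control replicate 3 8 fell. Without deficient replicate 2, 9 fell, and without deficient replicate 1, 2 rose. Of 76 ribosomal protein genes 68 did not pass, 6 rose and 2 fell. Without deficient replicate 1 or 2, 2 rose and 0 fell; without control replicate 1, 3 rose and 1 fell, and without control replicate 2 or deficient replicate 3, 1 fell. Many of these genes have processed copies elsewhere in the genome that can take or split reads.

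On day 2, 853 genes rose and 560 fell in the same fit. A test of the difference between the days passed for 4.01% of genes, 397 with a higher and 178 with a lower value on day 2.5, 575 in all. This count depended on single libraries: it was 119 to 283 without control replicate 1 or 3 or deficient replicate 2 or 3 of day 2, or without control replicate 3 or deficient replicate 1 or 2 of day 2.5, and 379 without control replicate 2 of day 2.5. It rose to 1217 without control replicate 2 and to 945 without deficient replicate 1 of day 2. Klf2 and T, below, each lost the call under some of these; Cyp51, Sstr5, Lama3, Itgb4 and Gadd45g passed under all 18 alternatives run. Among the naive genes Klf2 rose by 0.66 ± 0.16 on day 2 and by 1.92 ± 0.17 on day 2.5 (difference 1.25 ± 0.23, adjusted p = 0.0179). T stood at 0.24 ± 0.33 on day 2 (adjusted p = 0.699) and fell by 1.48 ± 0.28 on day 2.5 (difference -1.72 ± 0.43, adjusted p = 0.0373). Ctgf and Socs3 stood about as far from control on day 2, at 1.57 ± 0.11 and 1.73 ± 0.23, as on day 2.5, and their difference between the days did not pass (adjusted p = 0.475 and 0.648).

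**Figure D4:**
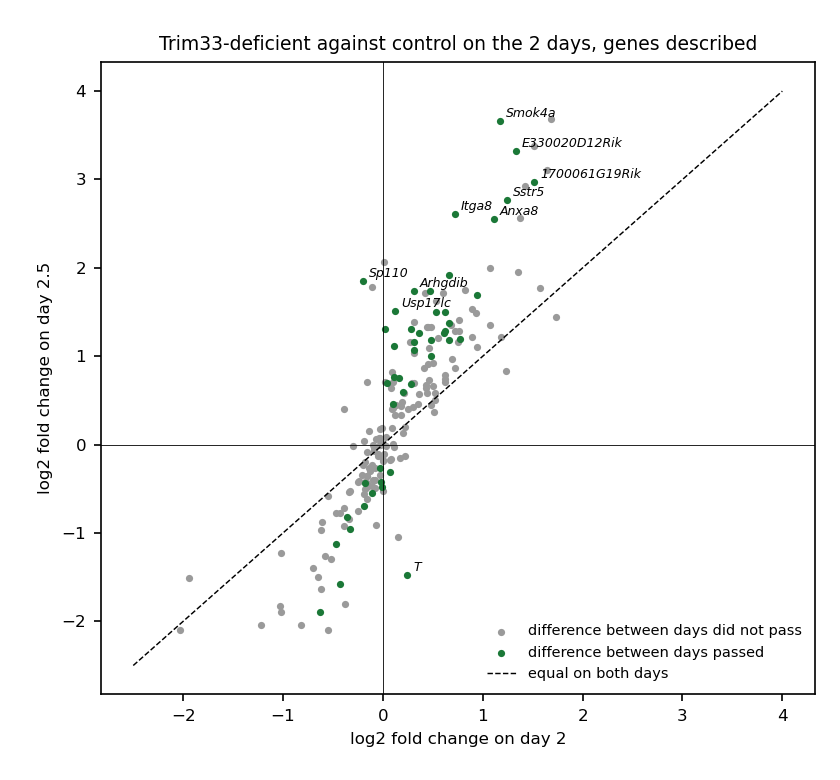
Log2 fold change of Trim33-deficient against control on day 2 (horizontal) and day 2.5 (vertical) for the genes described except Id1, Id2, Stat3 and Sox8. Green points passed the test of the difference between the days, and the dashed line marks equal values. Named points have the largest differences among the plotted genes that passed. T lies below the dashed line and the other named genes lie above it.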

How the data were processed

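Raw read counts per gene, 1 file per library, were deposited by the authors; STAR, HTSeq and DESeq and the genome build mm9 are named, per the submitters' processing notes. Versions, the annotation and the strand setting were not found in the sources used here. Without a known strand setting, overlapping and antisense genes cannot be told apart, and near-identical copies share reads. From the deposited counts, 5 closing rows that name no gene were left out; reads in no feature were 55.9 to 60.5% of the rows' total in the day 2.5 libraries. In 1 file, 27 gene names that had turned into dates were restored by row position. Of 24015 genes, 19581 had a count and 14356 passed edgeR's filterByExpr. Group means were fitted to all 12 libraries (R 4.3.3, edgeR 4.0.16, TMM, robust quasi-likelihood fit, 8 residual degrees of freedom), with Benjamini-Hochberg adjustment over all genes tested and a threshold of 0.05. Scripts were tested on simulated data. SE is the log2 fold change divided by the root of F; CPM uses TMM library sizes, and CPM is not per length, so levels are compared within a gene. Floors cover counting error only. DESeq2 1.42.0, other scalings and filters, the replicate block and leaving out each library were alternatives.

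The rule for named genes took Trim33, the 15 largest rises and 15 largest falls among genes that passed, averaged at least 1 CPM and had groups that did not overlap, and from each of 39 lists the defining members, the 6 with the smallest adjusted p and up to 3 that moved against the list. The lists, and the genes described among those the rule returned, were chosen with earlier results of these data known. Promoters are the 250 bases before each gene's start from the RefSeq table of GRCm38.p6, not of the authors' build.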

Additional observations from a re-analysis of the deposited data

Results flagged for a closer look

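Of 202 genes described that were tested, 46 differed between the days in their response to Trim33 loss (edgeR quasi-likelihood test of genotype by day, adjusted p under 0.05), against 4.01% of all genes tested. Id1, Id2, Stat3 and Sox8 are not among the 202. Sox8 passed the same test (difference 1.92 ± 0.37, adjusted p = 0.0114) and is not counted in the 46, while Id1, Id2 and Stat3 did not pass. The described genes were chosen on their day 2.5 values, which enter this test. Each value here is the day 2.5 log2 fold change minus that of day 2, and 33 were positive and 13 negative. A total of 10 of the 46 passed under all 18 alternatives, namely Cyp51, F3, Gadd45g, Itgb4, Klf6, Lama3, Lgals9, Mybl2, Sfrp1 and Sstr5.

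Among the largest rises and the membrane, matrix and adhesion genes, the difference was 2.49 for Smok4a, 1.98 for E330020D12Rik, 1.89 for Itga8, 1.52 for Sstr5, 1.46 for 1700061G19Rik, 1.44 for Anxa8, 1.29 for Lgals9, 0.87 for Lama3, 0.85 for Itgb4, 0.76 for Fn1 and 0.67 for S100a10. Naive, methylation, germline and two-cell-like genes gave 2.05 for Sp110, 1.39 for Usp17lc, 1.27 for Gadd45g, 1.25 for Klf2, 0.69 for Dppa3, 0.66 for Tet1, 0.65 for Dmrt1 and 0.36 for Fam208a. In the p53, cell cycle and survival lists it was 0.97 for Cdkn2b, 0.72 for Trp53inp1, 0.65 for Mdm2, 0.59 for Mybl2, 0.52 for Eda2r, 0.41 for Bcl2l1 and -0.67 for Bok. The sterol gene Cyp51 gave 0.42.

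Signalling and early response genes gave 1.02 for F3, 0.52 for Klf6, 0.75 for Ddx58 and 0.39 for Ifitm3, and markers of other cell types 1.02 for Ngfr and 0.90 for Pecam1. Arhgdib gave 1.44 among the regulators and effectors of small GTPases, where Pak1 gave -0.25 and Vav2 -0.40. The other negative values were -1.72 for T, -1.25 for Mogat2, -1.15 for Trh, -0.62 for Rassf2, -0.51 for Sfrp1, -0.46 for Lin28b and for Smad1, -0.44 for Phgdh, -0.38 for Bmpr1a and -0.24 for Fgfr1.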

How the results depend on the processing

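The 3165 genes that rose and 2978 that fell stayed within 1.5 times under every alternative run. Counts of rises and falls were 3178 and 2957 with RLE factors, 2993 and 3293 with upper-quartile factors, 3127 and 2841 with no filter, 3242 and 2870 without Rn45s and 2882 and 2749 by DESeq2; leaving out single day 2.5 libraries gave 2576 to 3038 and 2218 to 2872. Of 468 list calls, 400 to 473 were made under the alternatives. No direction reversed. Of 302 named genes that passed, 262 kept the call throughout, and 23 of 78 counts of list members moved by more than 1.5 times under some alternative. With the replicate number as a replicate block, 3005 rose and 2552 fell; of the genes described, Otx2, Cyr61, Yap1 and Ifit2 lost their calls there. Same-numbered libraries did not deviate together (r = -0.015, -0.044 and -0.014), so the numbers were not taken to pair them. The test of genotype by day, whose alternatives were chosen after seeing the data, gave 575 genes, 1169 with the replicate block, 822 by DESeq2 and 119 to 1217 when single libraries were left out; where the count moved, the cause was not tested. Depth limits genes near the floor of 0.179 to 0.267 CPM, such as Gsc and Prdm14.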

Other observations

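Among the 15 largest rises were 4 transcripts known only by RIKEN clone names, for which no function is given in the files. E330020D12Rik stood at 1.05, 0.711 and 0.819 CPM in control and 11.5, 7.10 and 7.74 CPM in Trim33-deficient bodies (log2 fold change 3.32 ± 0.26 SE, adjusted p = 2.30e-07), and 1700061G19Rik at 5.78, 4.18 and 5.10 and 48.7, 36.4 and 34.5 CPM (log2 fold change 2.97 ± 0.20 SE, adjusted p = 5.38e-07). A730082K24Rik and C130021I20Rik, both low, rose by 2.93 ± 0.36 and 2.56 ± 0.32 on the log2 scale. The control and deficient values of these 4 did not overlap, which the rule for the 15 largest rises required. In the neural crest list 3 of 9 tested members rose, 0 fell and 6 did not pass (median 0.45). Without control replicate 1 or deficient replicate 1, or by DESeq2, 1 fell. Sox8, also among the 15 largest rises, rose by 3.03 ± 0.24 on the log2 scale (adjusted p = 2.73e-07). Ngfr, a neurotrophin receptor, rose from 6.63, 3.91 and 4.60 to 12.5, 11 and 14.3 CPM (log2 fold change 1.31 ± 0.20 SE, adjusted p = 9.26e-05). Snai2 was the remaining riser (0.88 ± 0.27). Sox10, a defining neural crest factor, did not pass (0.45 ± 0.26, adjusted p = 0.178).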
